A study of Homo sapiens with 19 samples.

Results

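The vehicle-treated enhancer and promoter landscape of MOLM-13, a human acute myeloid leukaemia line that grows in suspension, is described here from 4 CUT&RUN libraries of cells kept in DMSO for 24 h: 2 libraries of H3K27ac and 2 of H3K4me2. They were chosen by their labels, as all vehicle libraries of these marks, and are 4 of the 19 libraries in the series. CUT&RUN uses an antibody to direct a nuclease to chromatin, so that fragments carrying a mark are released and sequenced. The same line was also profiled for H3K4me3, and after the compound Corin, an inhibitor of the CoREST complex that joins the demethylase LSD1 to histone deacetylases. 2 H3K4me3 vehicle libraries and 4 Corin libraries (2 H3K27ac and 2 H3K4me2, also 24 h) are used below as readouts that played no part in forming the classes. The labels give 0.1 µM as the dose of every library, DMSO included, where its meaning is unclear. All libraries come from 1 cell line, and the labels do not say whether replicates were separate cultures, so any p-value measures only the spread between these libraries. Depth is known only as the labelled minimum of 5000000 reads of 150 bp paired ends, so no interval or floor that needs it was computed, and a missing peak does not show that a mark is absent.

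H3K27ac is an acetyl group on lysine 27 of histone H3, placed mainly by p300 and CBP and found at active promoters and enhancers. H3K4me2 marks both promoters and enhancers, also those that are not acetylated, and is a substrate of LSD1. H3K4me3 sits mostly at promoters. In myeloid leukaemia with an MLL fusion, which MOLM-13 carries, the fusion protein keeps genes such as HOXA9, MEIS1 and MEF2C active, and the myeloid factors PU.1 (from SPI1) and C/EBPα (from CEBPA) bind many enhancers.

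Merging the 4 lists gave 39999 union regions, the stretches covered by at least 1 peak. A region was placed in a class when it had a peak (1 bp of overlap or more) in both libraries of a mark and, for the classes with 1 mark, in neither library of the other. Both marks were found in 7894 regions (19.7% of the union), H3K4me2 alone in 12073 (30.2%) and H3K27ac alone in 1656 (4.14%). The other 18376 regions were seen in only 1 library of a mark and are in no class. Regions with a transcription start site (TSS) of a protein-coding or long non-coding gene within 1 kb are called promoter regions here, and the others distal.

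A set of 6 distal regions are shown first, 2 per class, because they put the 3 classes beside genes on which the results turn. Each line gives 300 bases of the hg38 plus strand, the centre of the stretch shared by all libraries that have the region, taken from the widest distal region of the class at that gene without H3K4me3. Capitals mark matches to the 12 motifs listed further below, except at SCAND3, where they mark a tRNA gene. The SPI1 and SRGN sequences come from regions with both marks, those of SMAD3 and SCAND3 from regions with H3K4me2 alone, and those of MYB and MPO from regions with H3K27ac alone. The first bases of the SMAD3 sequence lie just outside its region, which starts at chr15:67042082.
SPI1 distal region, chr11:47394100-47394399: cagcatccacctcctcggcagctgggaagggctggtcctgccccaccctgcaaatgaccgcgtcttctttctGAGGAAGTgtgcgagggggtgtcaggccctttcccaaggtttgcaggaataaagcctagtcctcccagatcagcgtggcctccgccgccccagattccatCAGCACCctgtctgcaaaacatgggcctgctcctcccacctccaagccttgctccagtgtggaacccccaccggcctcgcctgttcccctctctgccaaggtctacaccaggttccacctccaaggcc
SRGN distal region, chr10:69057851-69058150: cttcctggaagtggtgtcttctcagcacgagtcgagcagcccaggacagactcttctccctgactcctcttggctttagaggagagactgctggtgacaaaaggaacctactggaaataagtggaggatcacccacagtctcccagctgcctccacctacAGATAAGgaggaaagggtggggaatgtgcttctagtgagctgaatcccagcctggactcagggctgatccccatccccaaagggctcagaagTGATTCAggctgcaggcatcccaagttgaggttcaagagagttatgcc
SMAD3 distal region, chr15:67042076-67042375: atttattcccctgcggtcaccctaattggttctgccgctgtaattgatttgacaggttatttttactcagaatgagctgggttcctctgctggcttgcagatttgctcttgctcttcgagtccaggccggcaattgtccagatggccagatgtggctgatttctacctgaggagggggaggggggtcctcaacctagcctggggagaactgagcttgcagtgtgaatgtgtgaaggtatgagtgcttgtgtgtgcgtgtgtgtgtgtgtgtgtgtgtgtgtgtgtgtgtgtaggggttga
SCAND3 distal region, chr6:28589343-28589642: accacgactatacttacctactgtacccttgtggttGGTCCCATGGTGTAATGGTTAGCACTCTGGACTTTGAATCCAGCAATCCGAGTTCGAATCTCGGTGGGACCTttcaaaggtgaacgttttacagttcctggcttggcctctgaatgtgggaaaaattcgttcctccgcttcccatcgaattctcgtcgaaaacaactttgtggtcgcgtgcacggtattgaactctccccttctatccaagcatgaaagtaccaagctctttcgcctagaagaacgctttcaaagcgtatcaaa
MYB distal region, chr6:135279960-135280259: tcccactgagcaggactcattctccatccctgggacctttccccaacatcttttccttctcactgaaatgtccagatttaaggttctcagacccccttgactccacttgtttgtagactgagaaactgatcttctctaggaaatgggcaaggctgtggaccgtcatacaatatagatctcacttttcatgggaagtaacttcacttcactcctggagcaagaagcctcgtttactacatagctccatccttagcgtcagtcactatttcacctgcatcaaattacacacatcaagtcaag
MPO distal region, chr17:58278542-58278841: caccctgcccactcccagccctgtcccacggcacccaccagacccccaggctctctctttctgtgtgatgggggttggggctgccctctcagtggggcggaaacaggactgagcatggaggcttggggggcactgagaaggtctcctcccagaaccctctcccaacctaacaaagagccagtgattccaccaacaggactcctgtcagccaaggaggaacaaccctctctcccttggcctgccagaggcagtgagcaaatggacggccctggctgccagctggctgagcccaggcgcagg

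The SPI1 window holds a match to the PU.1 motif and one to a part of the REST site. It comes from a region of 6045 bp upstream of SPI1, chr11:47390186-47396230, in an intron of a long non-coding gene and 11639 bp from the SPI1 TSS, with 5182 and 6043 bp under H3K27ac peaks and 3273 and 3558 bp under H3K4me2 peaks. SRGN encodes serglycin, the proteoglycan core of myeloid granules, and its window holds a GATA and an AP-1 match 28246 bp from the TSS in intergenic sequence. SMAD3 encodes a transducer of TGF-β signals, and its window, upstream of the gene in an intron of a long non-coding gene 22325 bp from the SMAD3 TSS, holds none of the 12 motifs. The SCAND3 window holds the gene TRQ-TTG2-1, which encodes a glutamine tRNA, and an unmarked match to the RUNX motif at base 30 of the window, in a region with 674 and 1199 bp of H3K4me2 and none of H3K27ac. The MYB window is intergenic, 97951 bp from the TSS of this progenitor factor, in a region with 1341 and 1637 bp of H3K27ac. The MPO window lies in an intron of the myeloperoxidase gene, 1615 bp from its TSS, in a region with 990 and 1139 bp of H3K27ac. Neither the MYB nor the MPO window held any of the motifs. Whether a region is called intronic or intergenic was read at its centre, also for these windows.

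The labelled cell type was checked against marker genes. Of 9 markers of monocytic and granulocytic leukaemia, 5 had both marks at the promoter (SPI1, CEBPA, CD33, FLT3 and HOXA9), CSF1R had H3K4me2 alone, and MPO, LYZ and MEIS1 had other combinations. Summed over the 9 genes, the length under peaks within 10 kb of the TSS was 31612 and 41383 bp for H3K27ac and 59150 and 59912 bp for H3K4me2. Of 15 erythroid, T, NK and B cell markers, 11 had no H3K27ac peak within 10 kb in either library. The summed H3K27ac length of the 15 was 3876 and 2317 bp. Over all 20046 protein-coding genes the median H3K27ac length in this window was 0 bp too, so a lack of it is common. GATA1, HBB, ALAS2 and CD3D were among the 6 of the 15 with no peak of either mark there, and 13960 of the 20046 genes had a peak. NKG7, an NK cell granule gene, had both marks at its promoter, and CD79A, a B cell receptor subunit, had H3K27ac of 1657 and 626 bp within 10 kb. The NKG7 window also holds the start of ETFB and CLDND2 and the CD79A window that of ARHGEF1, and the part of these neighbours in the values was not tested.

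H3K4me2 was the more widespread mark, with broader peaks that lay closer to promoters. The H3K27ac lists held 17599 and 19995 peaks and the H3K4me2 lists 30896 and 32299, a 1.68-fold difference (log2 ratio 0.75, SD of the difference 0.138, n = 2 libraries a mark). Covered length was 11.1 and 12.6 Mb for H3K27ac and 33.4 and 36.6 Mb for H3K4me2, a log2 ratio of 1.57 (SD 0.158) or 2.96-fold. The lists of the 2 marks did not overlap in either measure.

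Median peak width was 453 and 450 bp for H3K27ac and 828 and 837 bp for H3K4me2, a log2 ratio of 0.88 (SD 0.0129). Peaks over 2000 bp were 2.77% and 2.65% of the H3K27ac lists and 12.6% and 15.1% of the H3K4me2 lists. Within 1 kb of a TSS lay 42.9% and 44.05% of H3K27ac peaks and 58.7% and 54.9% of H3K4me2 peaks, a difference of 13.3 percentage points (SD 2.78). For each of these 4 measures the libraries of the marks were fully apart, by more than the spread within a mark. The exact two-sided permutation test gave p = 0.333 for all 4, the smallest p that 6 arrangements allow, and adjusting over the 4 tests leaves it there. With the 17599 top-scoring peaks of every list, the peak width ratio was 1.48 (log2) and the TSS difference 27.9 percentage points. At a score minimum of 100 the log2 ratio was 0.56 for peak width and 1.49 for peak number.

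**Figure D1:**
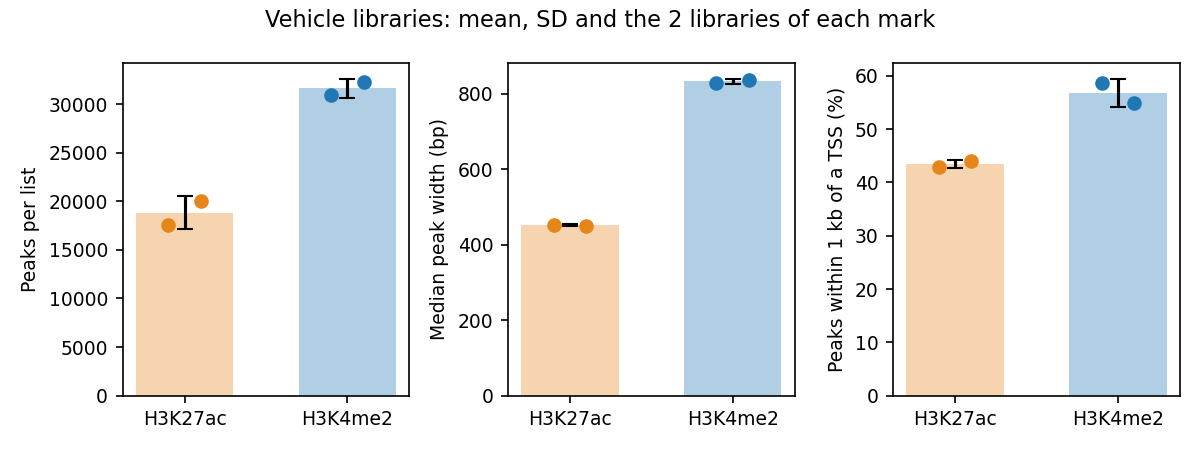
Peaks per list, median peak width in bp and percent of peaks within 1 kb of a TSS for the 2 vehicle libraries of each mark (points), with bars at the mean and error bars of 1 SD. H3K4me2 libraries lie above both H3K27ac libraries in all panels, for example at 828 and 837 bp against 453 and 450 bp of width.

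Replicate lists coincided more for H3K4me2 than for H3K27ac. The Jaccard index, the shared length divided by the length in either list, was 0.714 between the H3K4me2 lists and 0.396 between the H3K27ac lists. Across marks it was 0.165 to 0.197 in the 4 pairs of lists. Most H3K27ac peaks, 65.0% to 70.2%, overlapped an H3K4me2 peak, whereas 33.6% to 39.2% of H3K4me2 peaks overlapped an H3K27ac peak. The lists differ in length, which alone gives unequal shares.

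The classes depended on how many peaks a list holds. With every list held to its 17599 top-scoring peaks, 5466 regions had both marks, 5964 had H3K4me2 alone and 2996 had H3K27ac alone, so H3K4me2 alone fell below its full count of 12073 and H3K27ac alone rose above 1656. With 1 H3K27ac library left out, regions with H3K27ac alone numbered 5452 (without replicate 1) and 4709 (without replicate 2). Where a library had to cover 50% of a region, 1682 regions had H3K27ac alone and 1462 both marks, so H3K27ac alone was not the smallest class there, as it was under the other settings named in this paragraph.

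The class with H3K27ac alone lay farther from promoters than the other classes. Promoter regions made up 66.1% of the regions with both marks, 58.4% of those with H3K4me2 alone and 12.9% (214) of those with H3K27ac alone. The median distance to a TSS was 0 bp, 355 bp and 16089.5 bp in that order. Regions beyond 10 kb were 20.4%, 21.4% and 61.4% of the classes. Over all alternative settings the promoter share of H3K27ac alone stayed between 4.28% and 20.6%, under the lowest value of the other classes, 46.0%. The order of the other two classes turned when a library had to cover 50% of a region, to 46.0% with both marks against 67.8% with H3K4me2 alone.

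**Figure D2:**
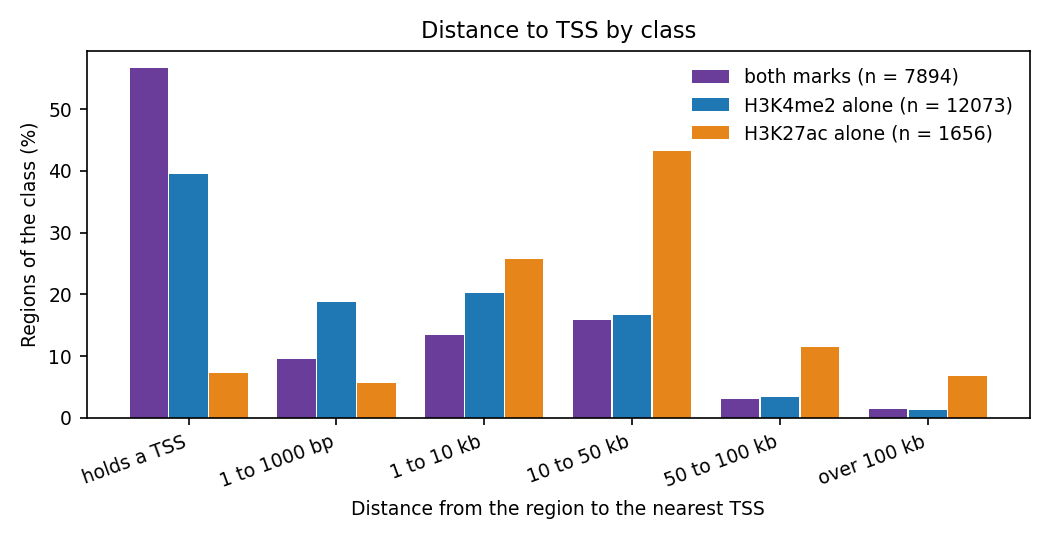
Percent of each class's regions (vertical axis) by distance in bp or kb from the region to the nearest TSS (horizontal axis), for regions with both marks, H3K4me2 alone and H3K27ac alone. Of the regions with H3K27ac alone, 43.2% lie 10 to 50 kb away and 7.25% hold a TSS, against 56.6% holding one in the class with both marks.

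Distal regions numbered 2674 with both marks, 5027 with H3K4me2 alone and 1442 with H3K27ac alone. These counts depended on single libraries and on list length. H3K4me2 alone rose to 9007 and 7549 distal regions without H3K4me2 replicate 1 or 2, and H3K27ac alone to 4844 and 4153 without H3K27ac replicate 1 or 2. At lists of matched number the order of these classes turned, to 1497 distal regions with H3K4me2 alone and 2379 with H3K27ac alone. Distal regions with both marks numbered 1363 at lists of matched number, 1298 at a score minimum of 100 and 789 where 50% of a region had to be covered. They were fewer than those with H3K27ac alone at matched number, with 50% covered (1438 with H3K27ac alone) and without H3K27ac replicate 1 or 2 (3590 and 3386 with both marks). Introns held 64.4%, 56.0% and 70.2% of their centres. Median GC content of the central 300 bases was 49.3%, 51.3% and 47.3%, and 5.20%, 2.92% and 10.3% of the centres had no CpG. Distal regions with H3K27ac alone were often neighbours of regions with both marks: 46.5% had one within 10 kb, close to the 43.8% of distal regions with both marks that had another, whereas 20.4% of distal regions with H3K4me2 alone had one. The nearest H3K4me2 peak of either library was within 500 bp for 16.5% of distal regions with H3K27ac alone and for 69.6% of such promoter regions.

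Regions with both marks were the widest, with a median of 2110 bp against 985 bp for H3K4me2 alone and 632.5 bp for H3K27ac alone. Part of this follows from how the classes were made, since a union of 4 lists is longer than one of 2 and a wide stretch meets more peaks. The order of the single-mark classes turned when an H3K4me2 library was left out, to 622 bp for H3K4me2 alone against 640 bp for H3K27ac alone without replicate 1, and 637 against 656 bp without replicate 2. Without H3K27ac replicate 1 or 2 the median for H3K27ac alone was 325 or 339 bp. Regions with both marks stayed the widest class in each of these cases, at 1806 to 1882 bp. Distal regions had medians of 1460 bp with both marks, 716 bp with H3K4me2 alone and 633.5 bp with H3K27ac alone. Within regions with both marks, the H3K4me2 peaks were the longer ones at 91.2% and 92.1% of promoter regions (replicates 1 and 2) and at 59.6% and 61.4% of distal ones. Median lengths at promoter regions were 755 and 893 bp for H3K27ac and 2010.5 and 2149 bp for H3K4me2. At distal regions they were 800 and 796 bp for H3K27ac and 983 and 974 bp for H3K4me2, so the gap between marks was mostly at promoters.

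**Figure D3:**
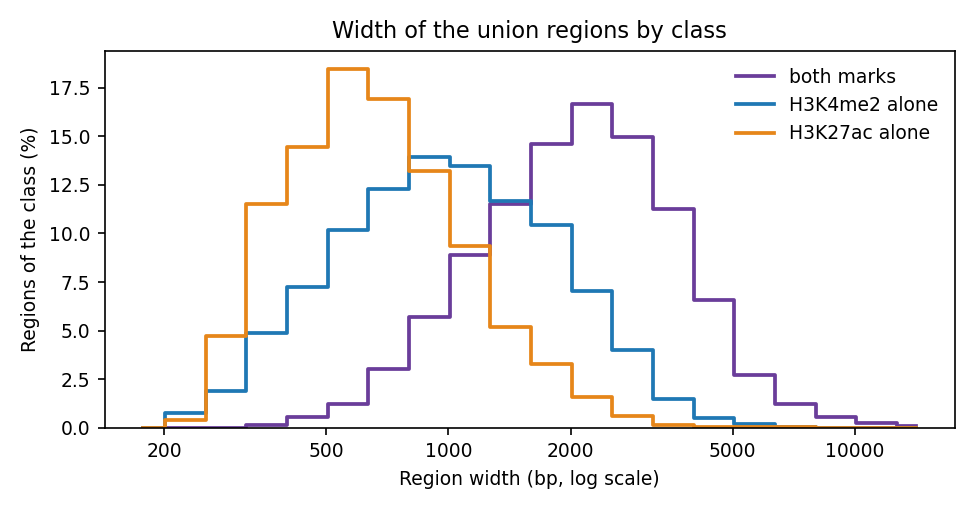
Width of the union regions in bp (log axis) against percent of the class's regions, for regions with both marks, H3K4me2 alone and H3K27ac alone. The curves overlap widely, with medians of 632.5 bp for H3K27ac alone, 985 bp for H3K4me2 alone and 2110 bp for both marks; the single-mark medians change order when an H3K4me2 library is left out.

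Peak scores, a value the authors deposited without a definition, were read only as ranks within a list. H3K27ac peaks in regions with both marks had a median rank at the 60.1 and 63.5 percentile of their lists, and those in regions with H3K27ac alone at 49.2 and 48.2. H3K4me2 peaks ranked at 65.3 and 62.9 with both marks and at 46.1 and 53.9 alone. Distal H3K4me2 peaks without H3K27ac ranked lower still, at 33.9 and 38.7. In both marks, then, peaks in regions seen in all 4 lists ranked higher than those in regions with 1 mark alone. Peaks in regions of no class, some of which also hold both marks, ranked lower. Their medians were 34.1 and 34.8 for H3K27ac and 33.6 and 28.5 for H3K4me2.

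H3K4me3 separated promoter and distal regions of the classes. It was present in both vehicle libraries at 92.0% of promoter regions with both marks, 50.5% of those with H3K4me2 alone and 68.2% (146 of 214) of those with H3K27ac alone. At distal regions the shares were 6.99%, 5.21% and 0.0693% (1 of 1442). Distal H3K27ac alone thus went with almost no H3K4me3, and under all alternatives that share was at most 0.47%. The order of the other classes was not stable. With both marks against H3K4me2 alone, the distal shares were 11.96% against 14.2% at lists of matched number, 7.47% against 7.85% at a score minimum of 100 and 4.31% against 8.16% where 50% of a region had to be covered.

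The Corin libraries, which took no part in the classes, had the same marks at most of these regions. Regions with H3K27ac alone had an H3K27ac peak in 94.6% and 87.9% of cases in the 2 Corin libraries, and an H3K4me2 peak in 28.9% and 20.05%. Of the 1656 regions, 904 (54.6%) had H3K27ac in both Corin libraries and H3K4me2 in neither. Regions with H3K4me2 alone had H3K4me2 in 99.1% and 97.7% and H3K27ac in 27.6% and 21.1%. The Corin lists are longer than the vehicle lists (30029 to 41152 peaks), and the share due to length and that due to treatment cannot be told apart.

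Around the TSS of genes with both marks at the promoter, the marks were arranged in layers. H3K4me2 peaks covered 48.2% of these 5208 TSSs (mean of 2 libraries), but 83.6% of positions 1000 bp downstream and 71.1% of positions 500 bp upstream. H3K27ac was at 50.2% of the TSSs, rose to its highest share, 68.2%, at 200 bp downstream, and was at 53.3% of positions 500 bp and 22.1% of positions 1000 bp downstream. H3K4me3 was at 84.8% of the TSSs and highest, at 95.7%, also at 200 bp downstream, where H3K4me2 was at 55.2%. H3K4me2 was thus less frequent at the TSS than 500 bp to either side of it (67.3% downstream), and the other marks were most frequent just downstream of the TSS. The 4483 promoters with H3K4me2 alone had no such dip. H3K4me2 was at 71.6% of their TSSs, between 74.7% at 500 bp downstream and 55.1% at 500 bp upstream.

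**Figure D4:**
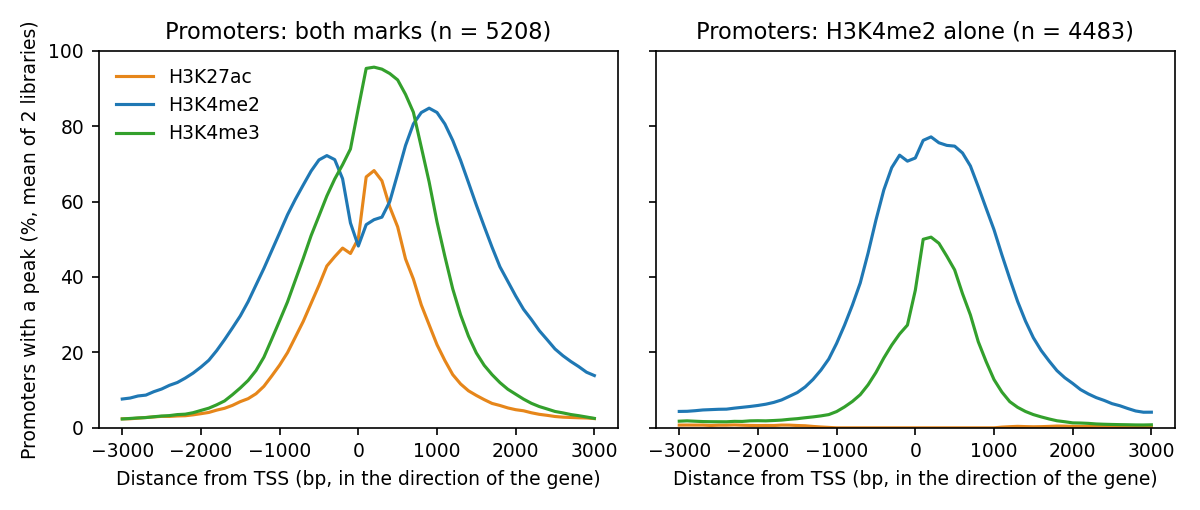
Percent of promoters with a peak (mean of 2 vehicle libraries) at distances in bp from the TSS, counted in the direction of the gene, for H3K27ac, H3K4me2 and H3K4me3. The left panel shows promoters with both marks, where H3K4me2 falls to 48.2% at the TSS; the right panel shows promoters with H3K4me2 alone, where H3K27ac is 0 within 1000 bp by definition.

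Of 20046 protein-coding genes, 5208 had both marks within 1 kb of the gene's TSS (26%), 4483 had H3K4me2 alone (22.4%), 25 had H3K27ac alone (0.125%), 7482 had no peak in the 4 lists (37.3%), and 2848 had other combinations. These shares are the background for the gene lists below. H3K4me3 was present in both libraries at 97.7% of the promoters with both marks and 54.3% of those with H3K4me2 alone. The lists are of 14 or 15 genes, were compiled from general knowledge, and are described by their counts alone. Lengths given for their members are summed within 10 kb of the TSS and leave out peaks farther away.

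MLL-fusion target genes had both marks at 10 of 15 promoters and H3K4me2 alone at none (1 and 2 without H3K27ac replicate 1 or 2). Those with both marks were BCL2, CDK6, FLT3, HOXA7, HOXA9, JMJD1C, MBNL1, MEF2C, PBX3 and SKIDA1. Their median length under peaks within 10 kb was 5134.5 bp for H3K27ac and 10277 bp for H3K4me2, against 0 and 1447 bp over all genes. MEF2C, a transcription factor of immature myeloid and lymphoid cells, had 5958 and 6095 bp of H3K27ac and 15413 and 14460 bp of H3K4me2. HOXA9, a homeobox gene that sustains leukaemic self-renewal, had 4298 and 9366 bp of H3K27ac and 14233 and 15364 bp of H3K4me2. The H3K27ac libraries differed from each other more than 2-fold at HOXA9, while H3K4me2 lay above both. HOXA7 beside it had 1713 and 4750 bp of H3K27ac and 14162 and 14874 bp of H3K4me2. HOXA5 had no peak within 1 kb of its TSS but 5811 and 5739 bp of H3K4me2 within 10 kb. The windows of neighbouring HOXA genes overlap, so these lengths are shared in part.

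Myeloid transcription factors had both marks at 7 of 15 promoters and H3K4me2 alone at the other 8. CEBPA, CEBPB, CEBPD, CEBPE, EGR1, GFI1 and SPI1 had both marks. Those with H3K4me2 alone included BATF3, EGR2, ID2, IRF5, IRF8 and KLF4. GFI1, a repressor that guides granulocyte fate and recruits LSD1, had 7076 and 7933 bp of H3K27ac and 7061 and 9454 bp of H3K4me2 within 10 kb. CEBPA, the granulocyte-monocyte lineage factor, had 3551 and 5818 bp of H3K27ac and 7040 and 7246 bp of H3K4me2. IRF8, which drives monocyte and dendritic cell fate, had no H3K27ac in either library within 10 kb, with 5774 and 5599 bp of H3K4me2 and 3713 and 3535 bp of H3K4me3. Farther from its TSS, IRF8 was assigned 3 distal regions with both marks, 2 with H3K27ac alone and 1 with H3K4me2 alone. The widest, 2630 bp with both marks at chr16:85927317-85929946, lay 28155 bp from the TSS, and 1 with H3K27ac alone, chr16:85922058-85922485, overlapped an exon of IRF8. IRF5, an interferon-response factor with H3K4me2 alone within 1 kb, had 1837 and 2321 bp of H3K27ac within 10 kb. EGR2, a factor of macrophage differentiation, had 5338 and 5236 bp of H3K4me2 and no H3K27ac within 10 kb, and 1 distal region, with H3K4me2 alone. Within 10 kb the marks' values overlapped at GFI1 and were fully apart at IRF8 and EGR2.

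Monocyte and macrophage genes had H3K4me2 alone at 8 of 15 promoters: CD14, CD86, CSF1R, CX3CR1, ITGAX, TLR2, TLR4 and VCAN. Only 1 of the 15 promoters (TLR2) had H3K4me3 in both libraries, as did 9805 of all 20046. CD68, a lysosomal protein of macrophages, and CCR2, a chemokine receptor of monocytes, had both marks. CCR2 had 2822 and 3337 bp of H3K27ac and 5075 and 5020 bp of H3K4me2. VCAN, the matrix proteoglycan versican, had 3554 and 3123 bp of H3K4me2 and no H3K27ac. ITGAX, the integrin chain CD11c, had 865 and 2840 bp of H3K4me2 and no H3K27ac, with replicate libraries over 3-fold apart. With lists of matched number, 5 of the 15 promoters had H3K4me2 alone and 1 had both marks. The distal regions assigned to these genes were 7 with both marks, 3 with H3K4me2 alone and 4 with H3K27ac alone, against 2199, 4297 and 1070 assigned to all protein-coding genes.

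Granule and lysozyme genes, of early and later granules, had both marks at 6 of 15 promoters (AZU1, CTSG, ELANE, PRTN3, RNASE2 and SRGN) and H3K4me2 alone at 2. The difference from the monocyte list was not tested. AZU1 and PRTN3, neighbours in the cluster of neutrophil serine proteases, had 9277 and 10315 bp and 6109 and 8516 bp of H3K27ac. Their H3K4me2 lengths, 10161 and 11517 bp and 6354 and 9040 bp, were close to the H3K27ac lengths. Of the 5 genes of later granules, CAMP, LCN2, LTF and MMP8 had no peak at the promoter, whereas MMP9, a gelatinase, had a mixed pattern with 1265 and 2163 bp of H3K4me2 and 0 and 214 bp of H3K27ac. To this list 12 distal regions with both marks, 3 with H3K4me2 alone and 11 with H3K27ac alone were assigned. A few genes held most of them: SRGN had 8 of the 12 and 5 of the 11, MPO had 1 and 4, and 11 of the 15 genes had none with both marks.

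Stem and progenitor factors had both marks at 7 of 15 promoters (BCL11A, ETV6, FLI1, LMO2, LYL1, MYB and NFE2) and H3K4me2 alone at GATA2, HLF and TAL1 (3, but 5 without H3K27ac replicate 1). MYB, which keeps progenitors dividing, had 9358 and 9573 bp of H3K27ac and 8526 and 8071 bp of H3K4me2, so acetylation was the longer mark in both libraries. LYL1, a basic helix-loop-helix factor, had 2260 and 2245 bp of H3K27ac and 8920 and 8682 bp of H3K4me2. FLI1, an ETS factor, had 1313 and 2029 bp of H3K27ac and 5290 and 5866 bp of H3K4me2. HLF, a stem cell factor, had no H3K27ac and 1663 and 1300 bp of H3K4me2.

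Targets of FLT3 and STAT5 signalling had both marks at 5 of 15 promoters and H3K4me2 alone at another 5. These counts depended on 1 library: both marks were at 9 without H3K27ac replicate 1, and H3K4me2 alone was at 9 without H3K27ac replicate 2. CISH, a feedback inhibitor that STAT5 induces, had 5255 and 8756 bp of H3K27ac and 10837 and 11398 bp of H3K4me2. SOCS2, of the same inhibitor family, had 4185 and 4054 bp and 7852 and 6308 bp. DUSP6, a phosphatase that ERK signalling induces, had no H3K27ac and 6612 and 6988 bp of H3K4me2. PIM1, a kinase gene induced by STAT5, had H3K4me2 alone at the promoter.

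Among myeloid surface and cytokine receptor genes, 4 of 15 promoters (CD33, CSF3R, IFNGR1 and IL6R) had both marks and 6 (among them CD38, CD44, FCGR2A and KIT) had H3K4me2 alone. IFNGR1, an interferon-γ receptor chain, had 2167 and 3221 bp of H3K27ac and 4219 and 4113 bp of H3K4me2. CD44, a hyaluronan receptor, had no H3K27ac and 3583 and 3466 bp of H3K4me2.

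Genes of other lineages seldom had both marks, which 26% of all protein-coding genes had. Their promoter peaks were mostly H3K4me2 alone, but its share, 18 of 75 promoters, was close to the 22.4% over all protein-coding genes. Erythroid and megakaryocyte genes had no peak at 13 of 15 promoters. T and NK cell genes had H3K4me2 alone at 5 (BCL11B, CD8A, EOMES, GATA3 and TBX21) and no peak at 9 of 15. B cell genes had H3K4me2 alone at BANK1, EBF1 and PAX5 and no peak at 11 of 15. PAX5, the B lineage factor, had 6709 and 7344 bp of H3K4me2 within 10 kb and no H3K27ac. Developmental factors had H3K4me2 alone at 4 of 15, among them OLIG2 and PAX6, and no peak at the other 11, and neuronal genes had it at 5 of 15. None of the 18 promoters in this group with H3K4me2 alone, counting EPOR and the neuronal BDNF, GAD1, SNAP25, SYP and VGF, had H3K4me3 in both libraries.

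MHC class II genes had no peak at 8 of 14 promoters, among them the HLA-DR, HLA-DQ and HLA-DP chains on the list, and both marks only at RFXANK, a subunit of their regulator (1 promoter, but 2 without either H3K27ac library). Cytosolic ribosomal protein genes, which nearly all cells transcribe, had both marks at 13 of 15 promoters. Genes of the CoREST complex, acetyltransferases and bromodomain proteins had both marks at 11 of 15, among them KDM1A (which encodes LSD1), RCOR1, HDAC1, HDAC2 and EP300. CREBBP, HMG20B, KAT2B and RCOR2 had H3K4me2 alone.

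**Figure D5:**
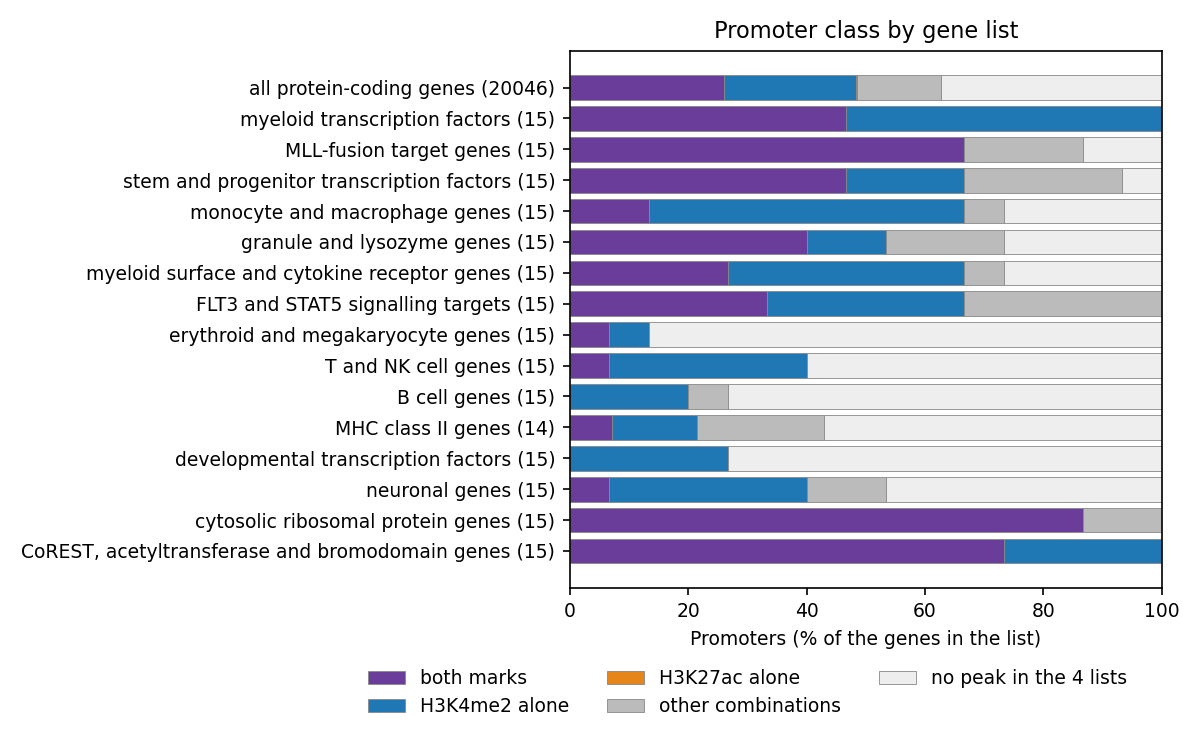
Percent of promoters in each class (horizontal axis) for all 20046 protein-coding genes and the 15 gene lists, with the number of genes in brackets. MLL-fusion targets, ribosomal protein genes and CoREST genes reach 10 to 13 of 15 with both marks. H3K27ac alone, at 0.125% of all promoters, appears in no list under the main settings, and under alternatives at up to 4 ribosomal protein promoters.

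Distal regions were assigned to the nearest protein-coding TSS within 100 kb. Regions with both marks went to 1547 genes (7.72% of genes), H3K4me2 alone to 3203 (16%) and H3K27ac alone to 731 (3.65%). Nearness does not show that a region acts on the gene.

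The genes with most distal regions with both marks were MBNL1 (12), RREB1 (9), SRGN (8), FOXN3 and TBC1D2B (7 each), and PARP8, GSE1 and ZNF516 (6 each). MBNL1 encodes a splicing factor, FOXN3 a forkhead repressor, GSE1 a protein found in CoREST-containing complexes, and RREB1 a zinc-finger factor downstream of RAS. At SRGN the 8 regions with both marks and 5 with H3K27ac alone were interspersed along chr10:69044870-69094316, and none had H3K4me2 alone. At lists of matched number the counts of distal regions with both marks were 5 at MBNL1, 4 at SRGN and 0 at FOXN3, and without H3K27ac replicate 2 PARP8 had 10. Over all alternatives the lowest counts were 5 at MBNL1 and RREB1, 4 at SRGN, 3 at ZNF516, 2 at PARP8, 1 at TBC1D2B and GSE1, and 0 at FOXN3.

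H3K27ac alone was most frequent at COL23A1 and RREB1 (10 regions each), FRY (9), ATP8B4 (8), EXOC3 and MYB (7 each), GPCPD1 (6) and SRGN (5). RREB1 and SRGN stood in both rankings. The COL23A1, FRY and ATP8B4 regions lay in introns of these genes, for a collagen, a large scaffold protein and a lipid flippase. Of the 7 regions nearest to EXOC3, 6 overlapped AHRR. At ATP8B4, 5 of the 8 regions lay between 50056926 and 50068809 on chromosome 15, after 1 region with both marks. At MYB, H3K27ac alone was found from 34355 bp before the TSS to 97951 bp after it, 3 of the 7 within the gene. The counts and their order depended on single libraries and settings. Without H3K27ac replicate 1, RREB1 had 24 such regions, FRY 19, COL23A1 18, MYB 12, EXOC3 11, GPCPD1 10 and SRGN 9. Without replicate 2, RREB1 had 19, FRY and ATP8B4 14 each, MYB 13, EXOC3 11, GPCPD1 10 and SRGN 8. Over all alternatives the lowest counts were 3 at RREB1 and EXOC3, 4 at FRY, ATP8B4, MYB and GPCPD1, 5 at COL23A1 and 1 at SRGN.

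H3K4me2 alone was most frequent at SMAD3 (9), SCAND3 (8), ZNF184, BCOR and IER5 (7 each), and NANOS3, PRSS16 and FAAP20 (6 each). BCOR encodes a Polycomb-associated corepressor. At lists of matched number the counts of distal regions with H3K4me2 alone were 0 at SMAD3 and 7 at ZNF184, and without H3K4me2 replicate 1 ZNF184 had 11. Over all alternatives the lowest counts were 0 at SMAD3, 5 at SCAND3, NANOS3 and FAAP20, 7 at ZNF184, 3 at IER5, and 2 at BCOR and PRSS16. SCAND3, ZNF184 and PRSS16 lie in the stretch of chromosome 6 that holds histone and tRNA genes, and none of these 3 genes had a distal region with H3K27ac alone or with both marks.

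The tRNA genes were examined after this was seen. Of 443 nuclear tRNA genes in RefSeq, 168 (37.9%) had H3K4me2 alone within 1 kb, 41 (9.26%) both marks, none H3K27ac alone, and 194 (43.8%) no peak. H3K4me3 was present in both libraries at 121 of the 168. On chromosome 6, 81 of 155 tRNA genes had H3K4me2 alone. A tRNA gene lay inside 50 of 5027 distal regions with H3K4me2 alone (0.995%), 9 of 2674 with both marks (0.337%) and none of 1442 with H3K27ac alone. The 5 widest distal regions with H3K4me2 alone, 4127 to 6133 bp, were all on chromosome 6, each held a tRNA gene, and each had H3K4me3. Among the 20 widest, 6 held a tRNA gene and 5 lay on chromosome 6. Such genes are transcribed by RNA polymerase III, so these regions are distal only with respect to protein-coding and long non-coding TSSs.

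The widest region with both marks was 17151 bp at MEF2D, a transcription factor, chr1:156488731-156505881, with 13831 and 15173 bp of H3K27ac and 15049 and 15887 bp of H3K4me2. It was followed by regions that included 15564 bp over BMI1 and SPAG6, 14915 bp at LAMP5 and 14438 bp at DACH1. BMI1 encodes a Polycomb protein that sustains self-renewal, and DACH1 is a transcription factor. H3K4me2 alone was widest over HES7 and ALOXE3 (10362 bp, chr17:8117174-8127535), at NKX2-3 (8217 bp), HOXA13 (7777 bp), TLE3 (6931 bp) and on chr6:26326271-26332859 (6589 bp). The widest with H3K27ac alone included chr2:60094819-60101419 (6601 bp), a region at the TSS of a long non-coding gene, and chr5:375991-379363 (3373 bp), which overlapped exons and had its centre in an intron of AHRR, a repressor of the aryl hydrocarbon receptor.

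Summed within 10 kb of the TSS, H3K4me2 was longer than H3K27ac at most genes. Of 13960 genes with any peak, both H3K4me2 libraries lay above both H3K27ac libraries at 12540 (89.8%) and below at 122 (0.874%), which follows in part from the longer H3K4me2 lists. The largest excess of H3K4me2 was at HMX2 (13993 and 16280 bp against 2231 and 2604 bp), then RPL23A, HOXA11, HOXA7 and ALOXE3. ALOXE3, a lipoxygenase of skin, had 10555 and 10276 bp of H3K4me2 and no H3K27ac.

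The largest excess of H3K27ac was at MPO, with 6274 and 7508 bp of H3K27ac against 2048 and 2110 bp of H3K4me2 and no H3K4me3. MPO encodes myeloperoxidase of the primary granules. It had 1 distal region with both marks, chr17:58283403-58285471, and 4 with H3K27ac alone between 58277914 and 58303136. NR1I2, the xenobiotic receptor PXR, followed with 2524 and 2824 bp of H3K27ac and no H3K4me2, and was one of the 25 promoters with H3K27ac alone. ATP8B4 had 6630 and 5447 bp of H3K27ac against 4050 and 3137 bp of H3K4me2. SMIM33 and MYBPC3 completed the list, and the MYBPC3 window overlaps part of the SPI1 gene. Without H3K27ac replicate 2, H3K4me2 minus H3K27ac at MYBPC3 was -1194 bp, against -2229.5 bp with all libraries. At SMIM33 it was -2334 bp, and -3458.5 to -1084 bp over the alternatives. Over the alternatives, H3K4me2 minus H3K27ac at MPO ranged from -5429 to -3745 bp.

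The density of regions with H3K27ac alone differed between chromosomes. Per 10 Mb, chromosome 8 held 10.1 such regions, chromosome 19 held 9.21, chromosome 6 held 8.61 and chromosome 20 held 8.53, against 2.52 on chromosome 4 and 1.92 on X. H3K4me2 alone was densest on chromosomes 19 (129 per 10 Mb) and 17 (96.8), with 29.9 on chromosome 8. As a share of the regions in any of the 3 classes, H3K27ac alone made up 13.9% on chromosome 8, 12.3% on 13 and 11.8% on 18, against 7.66% genome-wide. On chromosome 19, where the other classes were dense too, it was 4.22%, and on 17 it was 3.98%. Copy number was not measured here, and its part in these counts was not tested.

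Short motifs were counted in the central 300 bases of distal regions, on both strands. For the myeloid factors, PU.1 was searched as GAGGAAGT and C/EBP as TTGCNNAA. RUNX, the core-binding factor of blood development, was searched as TGTGGTT, and AP-1, the factor of stimulated enhancers, with N for any base at its middle, as TGANTCA. The other motifs were the ETS site CCGGAAGT, the interferon response element GAAAGTGA, the HOXA9 site TGATTTAT, the NRF1 site GCGCATGCG and the CTCF core CCACTAGGG. The remaining ones were GATA, searched for the erythroid and stem cell factors as AGATAAG, the E-box as CACGTG, which many helix-loop-helix factors share, and REST, a repressor of neuronal genes, by the part CAGCACC of its longer site. The PU.1 motif was in 5.12% of distal regions with both marks, 4.42% with H3K4me2 alone and 4.37% with H3K27ac alone, against 2.59% of 35116 RefSeq promoters of the same length. The C/EBP motif was in 17.9%, 14.9% and 15.2%, against 10.5% of promoters. The RUNX motif was in 8.003%, 9.19% and 5.76%, against 4.27%, and the AP-1 motif in 12.2%, 12.2% and 9.78%, against 7.71%. Over all distal regions, those in no class included, the shares were 4.59% for PU.1, 16.5% for C/EBP, 8.40% for RUNX and 12.6% for AP-1. The values for H3K27ac alone lay below those of all distal regions for all 4 motifs. Those for H3K4me2 alone did so for PU.1, C/EBP and AP-1, and those for both marks for RUNX and AP-1. The ETS motif was in 0.262% with both marks, 0.656% with H3K4me2 alone and 0.208% with H3K27ac alone (0.419% of all distal regions), and the NRF1 motif in 0.0374%, 0.239% and 0% (0.0969%). These were counts of 7, 33 and 3 regions for ETS and 1, 12 and 0 for NRF1. The GATA motif was in 3.78%, 3.10% and 4.23% (3.83%), and the E-box in 4.67%, 5.85% and 4.85% (4.85%). The interferon response element was in 2.17%, 2.77% and 1.73% (2.35%), and the HOXA9 motif in 0.860%, 1.09% and 0.693% (1.17%). The part of the REST site was in 7.55%, 7.10% and 6.38% (6.77%), and the CTCF core in 0.224%, 0.239% and 0.139% (0.211%). None of these differences was tested, and a match is not a bound site.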

How the data were processed

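The deposited lists hold chromosome, start, end and score of each peak, 1 list per library. Per the submitters' processing notes, the authors used Trim Galore, Bowtie2, Picard and MACS2 with GRCh38/hg38; options, control and threshold are not given in the sources used here. Scores in the lists are the authors' own whole-number values, none under 50, and are not defined. IgG libraries were not used here.

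Peaks were merged into union regions and classed by overlap of at least 1 bp, and promoters by peaks within 1 kb of the gene's TSS, with GENCODE release 44 (84610 TSS positions) and RefSeq sequences and tRNA genes of GRCh38.p14. Distal regions went to the nearest protein-coding TSS within 100 kb. The 4 comparisons of marks used exact two-sided permutation tests over libraries; regions and genes are not replicates and were not tested. Named genes followed a rule: per list the 2 members with most bp in regions with both marks and with H3K4me2 alone, per class the 8 genes with most distal regions and the 5 widest regions, and the 5 largest differences in each direction. Genes named otherwise are members of a counted class, markers or illustrations chosen after their values were seen, as were the printed sequences and the tRNA count. The parts described and the lists were chosen with earlier results of these data known. Alternatives were matched list lengths, a score minimum of 100, other overlap, merging, margin and TSS settings, each library left out, the Corin libraries added (marks permuted freely or within treatment), and a replicate block. The code was tested on simulated data. Python 3.11.15, NumPy 2.4.6, pandas 2.3.3, SciPy 1.17.1, pysam 0.24.0 and samtools 1.23.1 were used. Some genes that met the naming rule are not reported here.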

Additional observations from a re-analysis of the deposited data

How the results depend on the processing

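With the 4 Corin libraries added (8 libraries, 70 arrangements), the exact permutation test gave p = 0.0286 for covered length (log2 ratio 1.27), peak width (0.83) and the TSS share (13.3 percentage points), which then passed 0.05, and p = 0.114 for peak number (0.54), which did not. That test permuted the marks freely across treatments. Permuting them within DMSO and within Corin, an exact test chosen after seeing the data, gave p = 0.0556 for all 4, the smallest that 36 arrangements allow, so none then passed. The direction of the 4 mark comparisons held in all alternatives run; peak number at matched list length is equal by construction. Leaving out each library gave 0.66 to 0.84 (log2) for peak number.

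Region and promoter counts moved more. Regions with both marks numbered 4027 at a score minimum of 100 and 1462 where presence needed 50% of the region, against 1682 with H3K27ac alone there. H3K4me2 alone fell to 5964 at matched list length. H3K27ac alone numbered 2996 at matched list length, 668 at a score minimum of 100, 1098 with no H3K4me2 peak within 1000 bp, 2565 from stretches shared by the 2 lists of a mark, and 1943 to 5452 with 1 library left out. Promoters with both marks numbered 2755 at a score minimum of 100 and 737 with 50% of the window. Those with H3K27ac alone numbered 321 at matched length, 196 with 50% of the window, 129 with a 500 bp window and 43 to 72 with 1 library left out. The cause was not tested.

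With a replicate block, libraries of the same number paired across marks, peak number kept its log2 ratio of 0.75 and the exact sign-flip p was 0.5, the smallest 4 arrangements allow. Deviations of same-numbered libraries correlated at 0.262 over 13960 genes, and what same-numbered libraries have in common is not stated. Depth is unknown, 2 libraries a mark limit every comparison, and peaks near the authors' threshold can be missed in 1 library.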
